A study of Mus musculus with 6 samples.

Results

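The proteasome genes described here are the protein-coding genes whose symbol is Psma, Psmb, Psmc, Psmd, Psme, Psmf or Psmg followed by a number, less Psmb8, Psmb9 and Psmb10, which encode the immunoproteasome subunits. This rule uses names and no measured value, and it picked 46 of the 50600 genes in the count table. The RNA came from cardiac side population cells (SP-CPCs), heart cells that extrude a DNA dye and that were sorted after cardiomyocytes and erythrocytes had been depleted. There were 3 wild-type (wt) libraries from C57BL/6NRj mice and 3 libraries from mice lacking the Flt3 ligand in every cell (flt3L-/-, strain C57BL/6Flt3Ltml/mx on a C57BL/6N background), all young adults with no treatment. Each library pooled cells of 4 mice, and a wt and a flt3L-/- sort were made together on each of 3 days, so that a replicate is a pool and not an animal. Those days define pairs 1 and 2, sorted in 2016, and pair 3, sorted in 2017.

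The 26S proteasome degrades proteins tagged with ubiquitin. Its 20S core is a barrel of outer alpha rings, which gate the entry, and inner beta rings, which hold the cutting sites, and the 19S particle on top recognises, unfolds and feeds in the substrate. Other caps (the activators PA28 and PA200) open the same gate without ubiquitin, and dedicated assembly factors build the particle. The genes of the complex are known to be transcribed together, with NRF1 (Nfe2l1) as a main factor that acts through antioxidant response elements when proteasome activity drops. In endothelial and immune cells interferon replaces the cutting subunits Psmb5, Psmb6 and Psmb7 by Psmb8, Psmb9 and Psmb10, which changes the peptides made for antigen presentation.

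Among these libraries, total counts were 24370913 to 31145519, and 91.5% to 93.8% of them fell on protein-coding genes. Levels are given as CPM, the counts scaled to library sizes that were corrected with TMM factors, and 3 counts, used as the floor of detection, came to 0.109 to 0.127 CPM (counting error only). Counts of Flt3l, the targeted gene, were not reduced, and 22.1% of its exon bases are shared with Gm45713. Across pairs 1, 2 and 3, Flt3l had 8.67, 10.8 and 12.1 CPM in wt. In the libraries that carry the flt3L-/- label it had 13.6, 12.4 and 14.4 CPM. Which part of the transcript the allele lacks is not given in the sources used here, so these values alone do not settle the labels, and every direction below is that of the libraries as labelled. Klrb1c, which encodes a surface receptor of NK cells, a cell type known to need Flt3 ligand for its development, had 7.93, 11.1 and 33.7 CPM in wt and 2.73, 4.92 and 2.53 CPM in libraries labelled flt3L-/-, lower than every wt library in each of them (log2 fold change −2.11, adjusted p = 0.973 in edgeR). The gene was singled out after its values had been seen, and 394 of 13475 genes tested had all libraries labelled flt3L-/- below all wt libraries. On the same marker list, Ncr1 (−1.80) and Nkg7 (−1.43) were also lower in each pair, but their groups overlapped. Cd3e (0.22) was higher in pairs 1 and 2. Of 6 endothelial markers, all 6 were measured, and they summed to 6082 to 7408 CPM in wt and 5857 to 7595 CPM in libraries labelled flt3L-/-. The 6 fibroblast markers summed to 7315 to 17401 CPM in wt and 3453 to 11271 CPM in libraries labelled flt3L-/-. The library labelled flt3L-/- of pair 3 stands apart in several of these sums, and its values are given beside the results that it touches. As RNA was measured in bulk, a lower value can mean fewer cells of a type or less RNA per cell, which cannot be told apart.

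Promoter stretches are shown first, and no link between them and the levels of these genes was tested. In the RefSeq promoter windows (GRCm38.p6, 250 bases before to 50 after each start site), 38 of the 46 genes had an entry, with 41 windows in all. The antioxidant response element core TGACNNNGC, searched on both strands, was found in windows of 6 genes, 5 of which are printed with the match in capitals and all annotated exons left out. The printed stretches are read on the gene's strand.
Psmb5 (chr14:54618023-54618068, minus strand): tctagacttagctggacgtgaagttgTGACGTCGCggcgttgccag
Psmb6 (chr11:70525322-70525356, plus strand): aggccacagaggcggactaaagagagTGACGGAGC
Psmc6 (chr14:45329574-45329631, plus strand): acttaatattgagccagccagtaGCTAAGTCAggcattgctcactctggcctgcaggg
Psmd12 (chr11:107479278-107479315, plus strand): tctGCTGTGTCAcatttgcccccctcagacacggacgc
Psmd9 (chr5:123228133-123228189, plus strand): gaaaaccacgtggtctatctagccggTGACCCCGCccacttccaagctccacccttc

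In Psmc6 and Psmd12 the match is the reverse complement. The core was present in 14.6% of the windows of proteasome genes, against 14.2% of the 13363 windows of genes that were tested and 12.4% of all 32851 windows in the table. Of 14 patterns searched on both strands, the widest gap was that of the ETS core TTCCGG, found in 51.2% of the proteasome windows, 25.7% of the windows of tested genes and 14.9% of all windows. Its longer form CCGGAAGT, which overlaps it, was found in 24.4%, 7.44% and 3.89%. The other patterns were the looser antioxidant core TGANNNNGC (56.1% of proteasome windows and 42.7% of windows of tested genes), CCAAT (31.7% and 37.4%), the GC box GGGCGG (56.1% and 60.8%), TATAAA (7.32% and 7.63%), the octamer ATTTGCAT (2.44% and 1.28%), TGACGTCA (0% and 2.84%), TGACTCAGC (0% and 0.412%), the nuclear respiratory factor site in a strict form (4.88% and 1.92%) and with 1 free base (17.1% and 9.2%), the heat shock element (0% and 0.471%) and the maf recognition element (0% and 0.105%). These are matches of letters in a window, not binding sites, and the patterns were not tested against each other.

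Nearly all of the complex was well covered by reads in SP-CPCs. Of the 46 genes, 45 passed the filter of more than 1 CPM in at least 2 libraries. Psmb11, the thymus-specific catalytic subunit, did not pass and had 0 counts in each wt library and 2, 0 and 1 counts in libraries labelled flt3L-/-. Psma8, the alpha subunit of the testis proteasome, passed through 2 libraries only, with 10, 32 and 15 counts in wt and 7, 8 and 26 counts in libraries labelled flt3L-/-. To compare genes, levels were divided by the length of the principal transcript of each gene, which gives CPM per kb. On this scale the mean level of the 45 genes in wt had a median of 44.4 CPM per kb, against 8.25 CPM per kb over all 13475 genes tested.

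Core subunits were not equally abundant in wt. Psma7 had 136 ± 19.1 CPM per kb (SD, n = 3), Psmb6 136 ± 10.8 CPM per kb and Psmb2 108 ± 3.76 CPM per kb, while Psma3 had 13.3 ± 1.82 and Psma5 15.2 ± 0.784 CPM per kb. The values of Psma3 and Psma5 do not overlap those of Psma7, Psmb6 or Psmb2 in any library. Part of this order rests on length and mapping: 36.58% of the 81-base stretches of the principal transcript of Psma5, 35.9% of those of Psmb5 and 21.15% of those of Psma3 also occur in other annotated transcripts, mostly pseudogenes. Divided by the union of all annotated exons instead, the level in wt was 40.4 CPM per kb for Psma7, 58 CPM per kb for Psmb6 and 77.2 CPM per kb for Psmb2.

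By their medians, assembly factors and chaperones lay below the subunits, though single genes overlapped (Psmg2 had 14.9 and Psma3 13.3 CPM per kb). The 4 20S assembly factors Psmg1 to Psmg4 (PAC1 to PAC4, which guide the alpha ring) had a median of 11.4 CPM per kb in wt, and the 3 base chaperones Psmd5, Psmd9 and Psmd10 had one of 11.5 CPM per kb. The 6 base ATPases had a median of 71.8 CPM per kb, the 11 non-ATPase subunits of the 19S particle 52 CPM per kb and the 15 tested 20S subunits 42.8 CPM per kb. Psme4 (PA200), a nuclear activator linked to histone turnover, was the least abundant gene after Psma8, with 1.93 ± 0.867 CPM per kb.

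**Figure D1:**
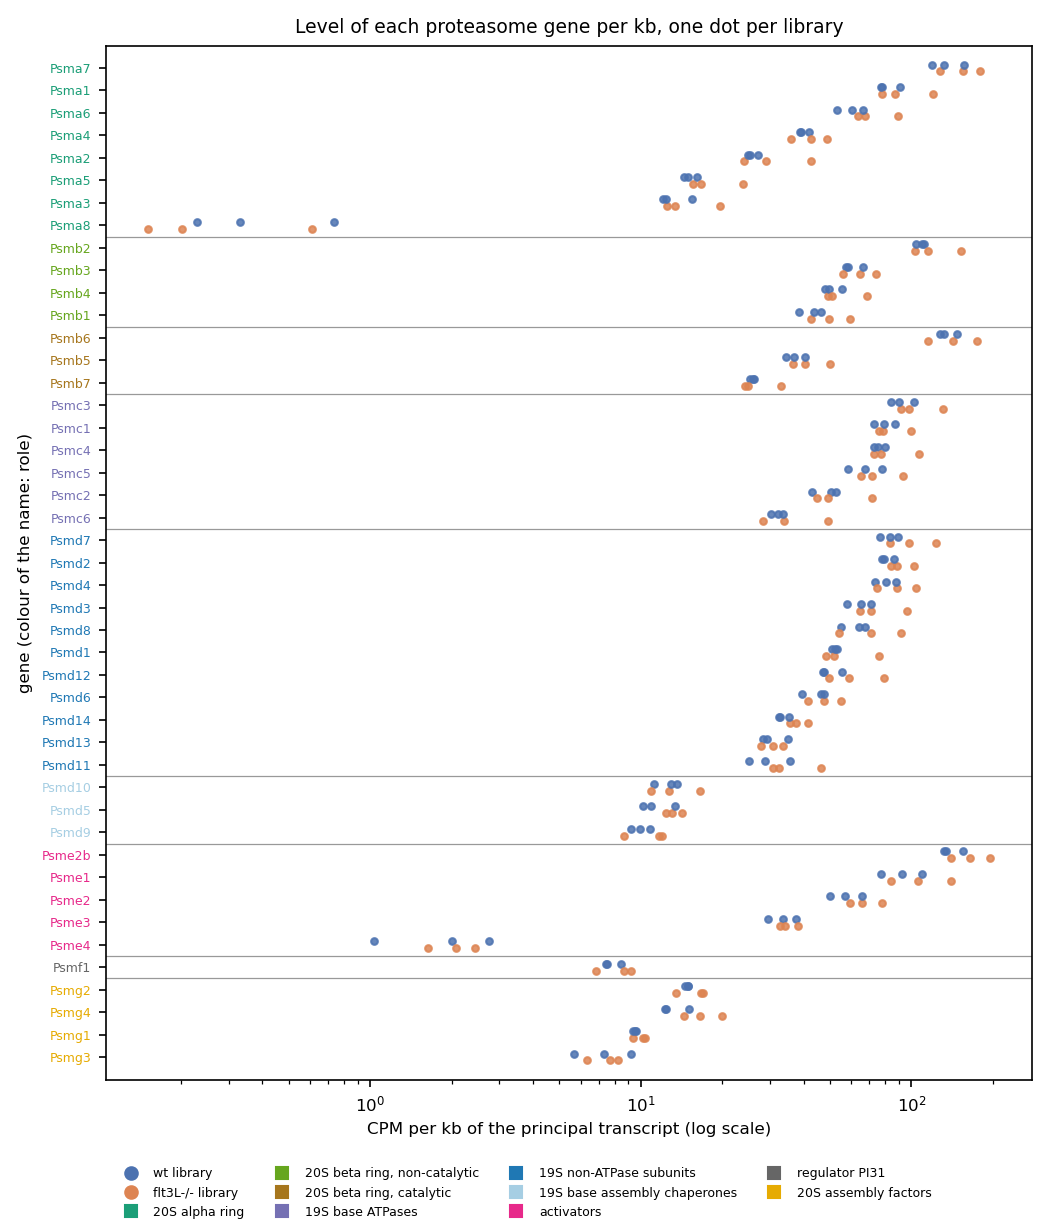
Level of each of the 45 tested proteasome genes in CPM per kb of principal transcript (log scale), 1 dot per library, in blue for wt and orange for flt3L-/-, with genes grouped by role. Psma7, Psmb6, Psmb2 and Psme2b lie near or above 100 CPM per kb, and Psma8 and Psme4 lie lowest. The rightmost dot of most genes is orange.

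Genotype was compared with the quasi-likelihood test of edgeR, with the sort day as a covariate. No proteasome gene was called at an adjusted p under 0.05, in a comparison that called 0 of 13475 genes (0%), with a smallest adjusted p of 0.973. At an unadjusted p under 0.05 there were 484 genes (3.59%), 149 higher and 335 lower in libraries labelled flt3L-/-, and 0 of them were proteasome genes. DESeq2 called 21 genes and also 0 proteasome genes. The directions were nevertheless one-sided. The log2 fold change was above 0 for 43 of 45 genes (95.6%), against 50.0% of all genes tested, and its median was 0.17 against −0.00027 over all genes. Among the 9515 genes between the lowest and the highest level of the proteasome genes other than Psma8, 52.8% lay above 0, with a median of 0.01. These genes are not matched in abundance: their median level in wt was 12.2 CPM per kb, against 44.4 CPM per kb for the proteasome genes. The library labelled flt3L-/- was higher in each of the 3 pairs for 23 of 45 genes (51.1%) against 14.2% of all genes, and 0 of the 45 were lower in each pair. These genes share libraries and a complex, so that they are not independent counts of a change. The sum of the cardiomyocyte markers (6 genes, 5 above the filter, none at 0 in all libraries) was also higher in each pair. It was 101, 144 and 136.5 CPM in wt and 167, 184 and 151 CPM in libraries labelled flt3L-/-, without overlap. Of single genes tested, 3.53% had all libraries labelled flt3L-/- above all wt libraries. Actc1, Tnnt2, Tnni3 and Myl2 were higher in each pair. Myh6 was lower in pairs 2 and 3, with 17.5 and 19.9 CPM in wt and 15.1 and 15.1 CPM in libraries labelled flt3L-/-. Dendritic cell markers (6 genes, 5 above the filter) summed to 231, 268 and 291 CPM in wt and 319.5, 277 and 348 CPM in libraries labelled flt3L-/-. Erythroid markers summed to 243, 419 and 364 CPM against 491, 422 and 372 CPM. Both sums were higher in each pair, with overlapping groups. Most of the dendritic sum was Zbtb46, with 196, 204 and 224 CPM in wt and 300, 174 and 239 CPM in libraries labelled flt3L-/-. H2-Aa and H2-Ab1 had log2 fold changes of 0.20 and 0.29. Those of Flt3 (−1.16) and Cd209a (−1.72) were below 0, and these genes reached at most 4.28 and 3.05 CPM in any library. As most of it came from 1 gene, the dendritic sum does not show whether dendritic cells were more or fewer. The part of these marker lists in the level of the proteasome genes was not tested.

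The size of the difference depended on the pair. The median log2 difference over the 45 genes was 0.06 in pair 1, 0.14 in pair 2 and 0.33 in pair 3, where all genes tested had medians of 0.04, 0.00 and 0.01. In pair 1, 29 of 45 genes were higher in the library labelled flt3L-/-, in pair 2 it was 37 and in pair 3 it was 43. Of all 13475 genes tested, 7285, 6785 and 6905 were higher in pairs 1, 2 and 3. Summed over the 46 genes, the level was 3093, 3262 and 3593 CPM in wt and 3244, 3549 and 4562 CPM in libraries labelled flt3L-/-, which are ratios of 1.05, 1.09 and 1.27. The group means were 3316 ± 255 CPM in wt and 3785 ± 690 CPM in flt3L-/- (SD, n = 3), and the groups overlapped. Without pair 3 the median log2 fold change fell from 0.17 to 0.08, with 35 of 44 genes above 0. The median over all genes tested was then 0.000476, and their share above 0 was not counted.

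The library labelled flt3L-/- of pair 3 was the highest of the 6 libraries for 38 of 45 proteasome genes (84.4%), against 27.4% of all genes. In that library the fibroblast markers were lowest of all 6 (3453 CPM, against 7315 CPM in its wt partner), and so were the pericyte and smooth muscle markers (255 CPM against 458 CPM) and the lymphocyte and NK markers (21.1 CPM against 163 CPM). Macrophage and monocyte markers, 6 of 6 measured, summed to 22.2 CPM there and 134 CPM in its partner. Endothelial markers summed to 7306 CPM and 6884 CPM. This library also had the most genes with counts (29594) and the lowest share on protein-coding genes (91.5%). The part of these differences in the level of the proteasome genes was not tested.

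**Figure D2:**
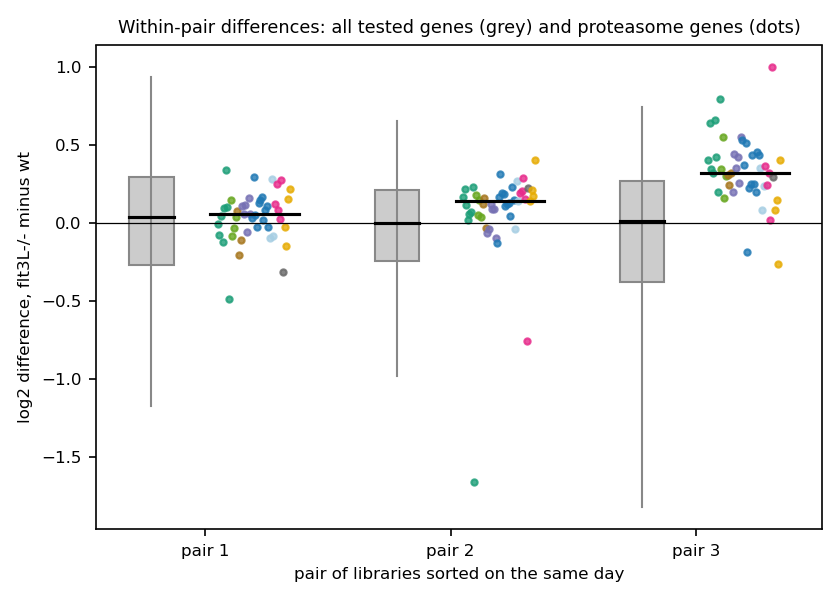
Log2 difference between the flt3L-/- and the wt library of each pair, for all 13475 genes tested (grey box from the 25th to the 75th percentile, whisker from the 5th to the 95th, line at the median) and for the 45 proteasome genes (1 dot each, coloured by role, black line at their median). The dots lie around 0.06 in pair 1, 0.14 in pair 2 and 0.33 in pair 3, while the medians of all genes stay between 0.00 and 0.04.

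Of the alpha ring genes, 7 of 8 had a log2 fold change above 0, with a median of 0.19, and 4 were higher in each pair. Psma6 had 55.2, 62.8 and 69.2 CPM in wt and 70, 66.2 and 93 CPM in those labelled flt3L-/- of pairs 1, 2 and 3. On the log2 scale the difference was 0.28, with a standard error (SE) of 0.14 and an adjusted p of 0.973 in edgeR. The unadjusted p-value, 0.098, was the second smallest of the 45 genes, and the groups overlapped at the library labelled flt3L-/- of pair 2. Psma7, the most abundant alpha gene per kb of principal transcript (Psma6 was higher per kb of all exons, with 50.6 against 40.4 CPM per kb), had 109, 121 and 143 CPM in wt and 117, 142 and 165 CPM in libraries labelled flt3L-/-. Each flt3L-/- value of Psma7 exceeded the wt value of its own pair, and that of pair 3 exceeded all wt values. Psma8 had 0.389, 1.24 and 0.559 CPM in wt and 0.255, 0.339 and 1.03 CPM in libraries labelled flt3L-/-, and its log2 fold change of −0.50 had an interval from −2.48 to 1.49.

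In the inner ring, all 4 non-catalytic genes Psmb1 to Psmb4 lay above 0, with a median of 0.15. Psmb2 had 93.9, 95.5 and 89.3 CPM in wt and 88.7, 99 and 131 CPM in libraries labelled flt3L-/-, so that its flt3L-/- values lay on both sides of the narrow wt range. Psmb1 had 67.3, 76.9 and 81.7 CPM in wt and 74.6, 87.1 and 104 CPM in libraries labelled flt3L-/- and was higher in each pair. Its log2 fold change was 0.23 (SE 0.13).

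Among the constitutive cutting subunits, Psmb5 had the median log2 fold change of the 45 genes (0.17). Those of Psmb6 and Psmb7 were smaller. Psmb5 (ENSMUSG00000022193, chromosome 14 from 54614119 to 54618022), the chymotrypsin-like subunit and target of bortezomib, had 30.9, 33.2 and 36.3 CPM in wt and 32.7, 36.2 and 45 CPM in libraries labelled flt3L-/-. It was higher in each pair by 0.08, 0.12 and 0.31 on the log2 scale, and 12.1% of its exon bases are shared with Mir686. Psmb6 (caspase-like, ENSMUSG00000018286, chromosome 11 from 70525367 to 70527858) had 105, 102 and 118 CPM in wt and 91.7, 114 and 140 CPM in libraries labelled flt3L-/-. Its pairs disagreed in sign, with −0.20, 0.16 and 0.24. Psmb7 (trypsin-like, ENSMUSG00000026750, chromosome 2 from 38588036 to 38644087) had 30.2, 29.5 and 30.5 CPM in wt, a spread of 0.533 CPM (SD), and 28, 28.9 and 38.2 CPM in libraries labelled flt3L-/-. Of its flt3L-/- values, 2 lay below all wt values and the third above them. The log2 fold changes were 0.17 for Psmb5, 0.07 for Psmb6 and 0.06 for Psmb7, with 95% intervals from −0.19 to 0.53, −0.31 to 0.45 and −0.35 to 0.48. Without pair 3, that of Psmb5 was 0.10, that of Psmb6 −0.02 and that of Psmb7 −0.07. In Psmb7, 11.8% of the exon bases are shared with Nek6 and 23.15% of the 81-base stretches of the principal transcript also occur in other annotated transcripts.

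Among the 6 ATPases of the 19S base, the hexamer that pulls substrates into the core, all 6 log2 fold changes lay above 0 (0.09 to 0.20), and 2 of the 6, Psmc3 and Psmc5, were higher in each pair. Psmc3, the most abundant per kb of principal transcript, had 137, 147 and 167 CPM in wt and 149, 160 and 214 CPM in libraries labelled flt3L-/-. Psmc1 had 116, 126 and 138 CPM in wt and 125, 121 and 159 CPM in libraries labelled flt3L-/-, and Psmc2 had 76.4, 90 and 93.7 CPM against 79.8, 87.9 and 128 CPM. Per kb of all exons Psmc1 was the most and Psmc2 the least abundant of the ATPases, with 65.5 and 17.2 CPM per kb. Both were slightly lower in the library labelled flt3L-/- of pair 2. Psmc6, the least abundant ATPase per kb of principal transcript, had 72, 67.4 and 75 CPM in wt and 75.2, 63.1 and 110 CPM in libraries labelled flt3L-/-. Its libraries labelled flt3L-/- thus held both the lowest and the highest of the 6 values. Psmc5 had 76.9, 88.6 and 102 CPM in wt and 85.9, 94.4 and 123 CPM in libraries labelled flt3L-/-, with pair 3 highest in both groups. Without pair 3 the log2 fold change fell from 0.20 to 0.12 for Psmc3, from 0.16 to 0.01 for Psmc2, from 0.09 to 0.03 for Psmc1 and from 0.17 to −0.02 for Psmc6.

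The 11 non-ATPase subunits of the 19S particle had a median log2 fold change of 0.18, with 10 above 0 and 8 higher in each pair. Psmd2 (ENSMUSG00000006998, chromosome 16 from 20651652 to 20663414), the base scaffold RPN1 on which shuttle factors dock, had the highest CPM of all 46 genes, with 235, 231 and 254 CPM in wt and 261, 250 and 303 CPM in libraries labelled flt3L-/-. The mean was 240 ± 12.5 CPM in wt and 271 ± 28.2 CPM in flt3L-/- (SD, n = 3), and the groups overlapped at the library labelled flt3L-/- of pair 2, which lay below the wt library of pair 3. On the log2 scale the difference was 0.17 (SE 0.12, 95% interval −0.15 to 0.50, adjusted p = 0.973 in edgeR), and 13.05% of the 81-base stretches of its principal transcript also occur in other annotated transcripts.

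Psmd11 (RPN6), a lid subunit that clamps the 19S particle to the core, had the smallest p of the 45 genes. Its values were 71.6, 82.3 and 102 CPM in wt and 88, 92.5 and 132 CPM in libraries labelled flt3L-/-, giving a log2 fold change of 0.28 (SE 0.12, adjusted p = 0.973, edgeR), with an unadjusted p-value of 0.075. The lid subunit Psmd12 (RPN5) followed with 90.4, 90.1 and 105 CPM in wt and 94, 112 and 150 CPM in libraries labelled flt3L-/-, giving a log2 fold change of 0.30 with an unadjusted p-value of 0.0993 (0.19 without pair 3). Psmd7 (RPN8) had 121, 131 and 141 CPM against 131, 155 and 194 CPM, and its log2 fold change fell from 0.27 to 0.17 without pair 3. All 3 were higher in each pair, and in all 3 the lowest flt3L-/- value lay within the wt range.

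Psmd14 (RPN11), the enzyme that cuts ubiquitin off the substrate, was the only proteasome gene whose groups did not overlap. It had 50.1, 50.6 and 54.5 CPM in wt and 54.8, 57.6 and 63.9 CPM in libraries labelled flt3L-/-, where 3.53% of all genes tested had all libraries labelled flt3L-/- above all wt libraries. On the log2 scale the difference was 0.18 (SE 0.12, adjusted p = 0.973 in edgeR), with an unadjusted p-value of 0.202. The gene was singled out after its values had been seen. At the other end, the lid subunit Psmd13 (RPN9) was level, with 56.3, 58.3 and 69.5 CPM in wt and 55.3, 66.8 and 61.2 CPM in libraries labelled flt3L-/-. It was lower in the library labelled flt3L-/- of pair 3, unlike 43 of the 45 genes, and 10.1% of its exon bases are shared with Sirt3.

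The base chaperones Psmd5, Psmd9 and Psmd10 had log2 fold changes of 0.21, 0.10 and 0.07. Psmd10 (gankyrin) had 19.4, 15.9 and 18.4 CPM in wt and 18.2, 15.5 and 23.6 CPM in libraries labelled flt3L-/-. Psmd9 had 23.9, 28.1 and 25.7 CPM against 22.5, 31.1 and 30.4 CPM, and 25.5% of its exon bases are shared with Gm26745. Psmf1 (PI31), a regulator that binds the core, had 32.3, 28.2 and 28.6 CPM in wt and 26, 33.1 and 35.2 CPM in libraries labelled flt3L-/-. Their groups overlapped, and Psmd9, Psmd10 and Psmf1 were each lower in the library labelled flt3L-/- of pair 1.

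The 4 core assembly factors had a median log2 fold change of 0.07. Psmg4 had the largest value of the 45 genes, 0.35 (SE 0.21, unadjusted p-value 0.162), with 6.84, 6.91 and 8.38 CPM in wt and 7.98, 9.17 and 11.1 CPM in libraries labelled flt3L-/-. Psmg2 had 15.9, 15.5 and 15.9 CPM in wt and 14.3, 18 and 17.7 CPM in libraries labelled flt3L-/-. For Psmg3 the values were 5.02, 6.44 and 8.16 CPM in wt and 5.61, 7.3 and 6.81 CPM in libraries labelled flt3L-/-. The order of pairs differed between these genes: Psmg4 was higher in each pair, Psmg2 was lower in pair 1 and Psmg3 lower in pair 3.

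**Figure D3:**
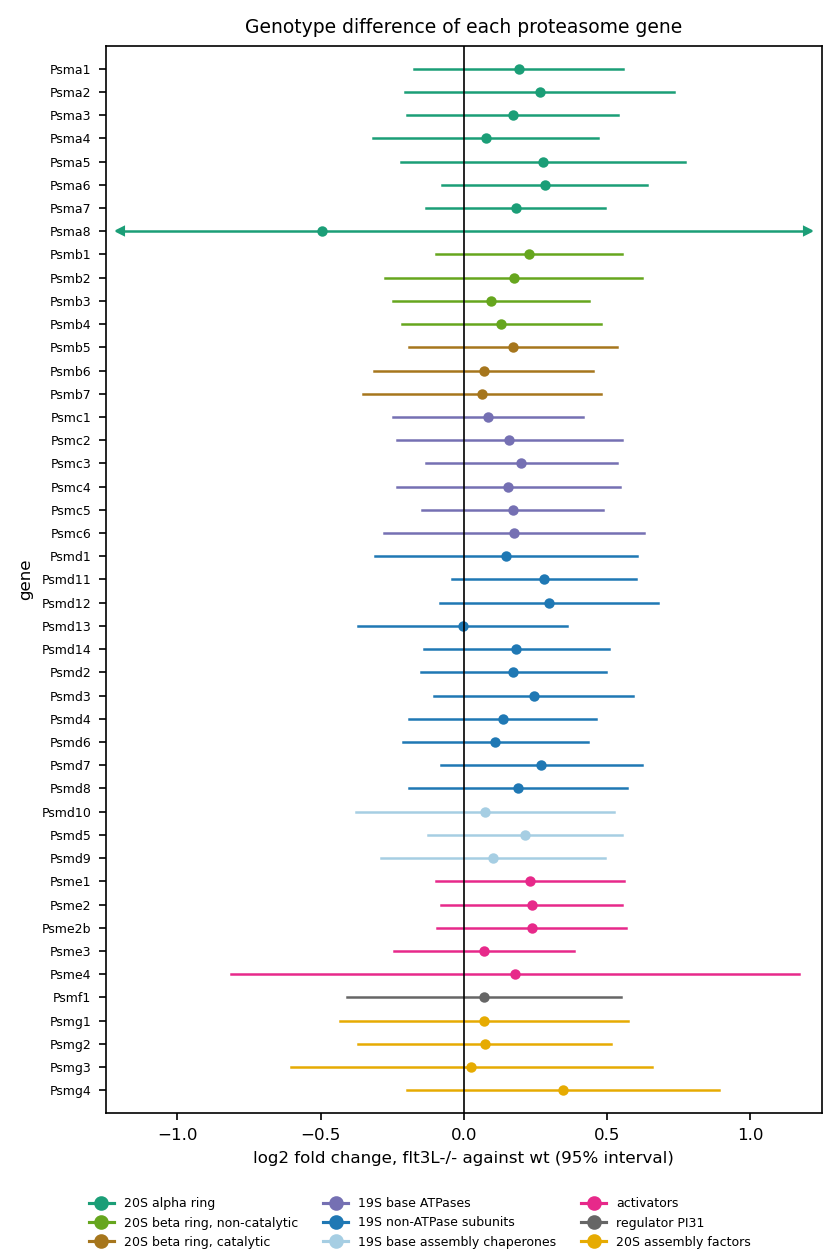
Log2 fold change of each tested proteasome gene in flt3L-/- against wt libraries (dot) with its 95% interval from edgeR's quasi-likelihood fit (line), coloured by role. Of 45 dots, 43 lie to the right of 0, every interval includes 0, and the interval of Psma8 runs beyond the axis (arrows).

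The activators were the role with the highest median log2 fold change, 0.23, with 5 of 5 genes above 0 and 4 higher in each pair. Psme1 (PA28 alpha, induced by interferon and used in antigen processing) had 85.8, 103 and 121 CPM in wt and 93.5, 118 and 156 CPM in libraries labelled flt3L-/-. Psme2, its partner PA28 beta, had 48.1, 54.8 and 63 CPM in wt and 57.3, 63.4 and 74.9 CPM in libraries labelled flt3L-/-, and its pairs differed by 0.25, 0.21 and 0.25 on the log2 scale, the steadiest difference of the activators. The p-values were 0.13 for Psme1 and 0.11 for Psme2 (edgeR, adjusted p = 0.973 for both). Psme3 (PA28 gamma, a nuclear activator) had 89.4, 78.3 and 99.8 CPM in wt and 91.2, 87.3 and 101 CPM in libraries labelled flt3L-/-, giving a log2 fold change of 0.07.

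Psme4 did not follow the other activators. It had 13, 17.9 and 6.67 CPM in wt and 15.8, 10.6 and 13.5 CPM in libraries labelled flt3L-/-, with pair differences of 0.28, −0.75 and 1.0 and a log2 fold change of 0.18 (SE 0.38). Without pair 3 its log2 fold change was −0.24.

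Reads of Psme2 and Psme2b cannot be fully told apart. Psme2b (chromosome 11 from 48945354 to 48946190, minus strand) has 1 exon in the annotation, and Psme2 (chromosome 14 from 55587441 to 55591113, minus strand) has 11 exons in the transcript compared here. Their coding sequences are 720 bases each and differ at 5 bases (99.3% identical), and 367 of the 640 coding stretches of 81 bases, the read length, are the same in both. The 81 bases with the most differences are shown (coding bases 463 to 543 of GENCODE transcripts, GRCm38), with the differing bases in capitals.
Psme2 (chromosome 14, between 55588049 and 55588267, introns left out): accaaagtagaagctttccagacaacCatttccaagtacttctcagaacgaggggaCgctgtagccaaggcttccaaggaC
Psme2b (chromosome 11, 48945576 to 48945656): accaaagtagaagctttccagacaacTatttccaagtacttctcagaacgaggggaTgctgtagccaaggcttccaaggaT

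The authors kept reads with several equally good positions and placed them at random, so that reads from the shared stretches fall on either gene. Psme2b had more counts than Psme2 in every library, with 2845, 2893 and 3486 counts against 1237, 1413 and 1692 counts in wt. In CPM it had 111, 112 and 130 in wt and 117, 138 and 163 in libraries labelled flt3L-/-, giving a log2 fold change of 0.24, the same to 2 decimals as that of Psme2. Its level of 140 ± 12.7 CPM per kb, the highest of the 45 genes, and that of Psme2 are therefore uncertain. Without Psma8 and Psme2b, 42 of 43 genes lay above 0 and the median was again 0.17.

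As a description over the 6 libraries, each gene's log2 CPM was correlated with the mean of the other 44. The median r was 0.92, and 33 of 45 genes had an r over 0.8. No such r was computed for other genes, so it is not known whether this is particular to proteasome genes. Psmb5 (0.995), Psmd3 (0.991) and Psmc3 (0.989) followed the mean most closely, while Psme4 (−0.20), Psmd13 (0.37), Psma8 (0.46) and Psmg3 (0.49) followed it least. The 6 points share the high library labelled flt3L-/- of pair 3. Beyond subunits of the 20S and 19S particles, the genes with an r under 0.8 included 3 of the 4 Psmg genes, the 3 base chaperones, Psmf1 and Psme3.

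**Figure D4:**
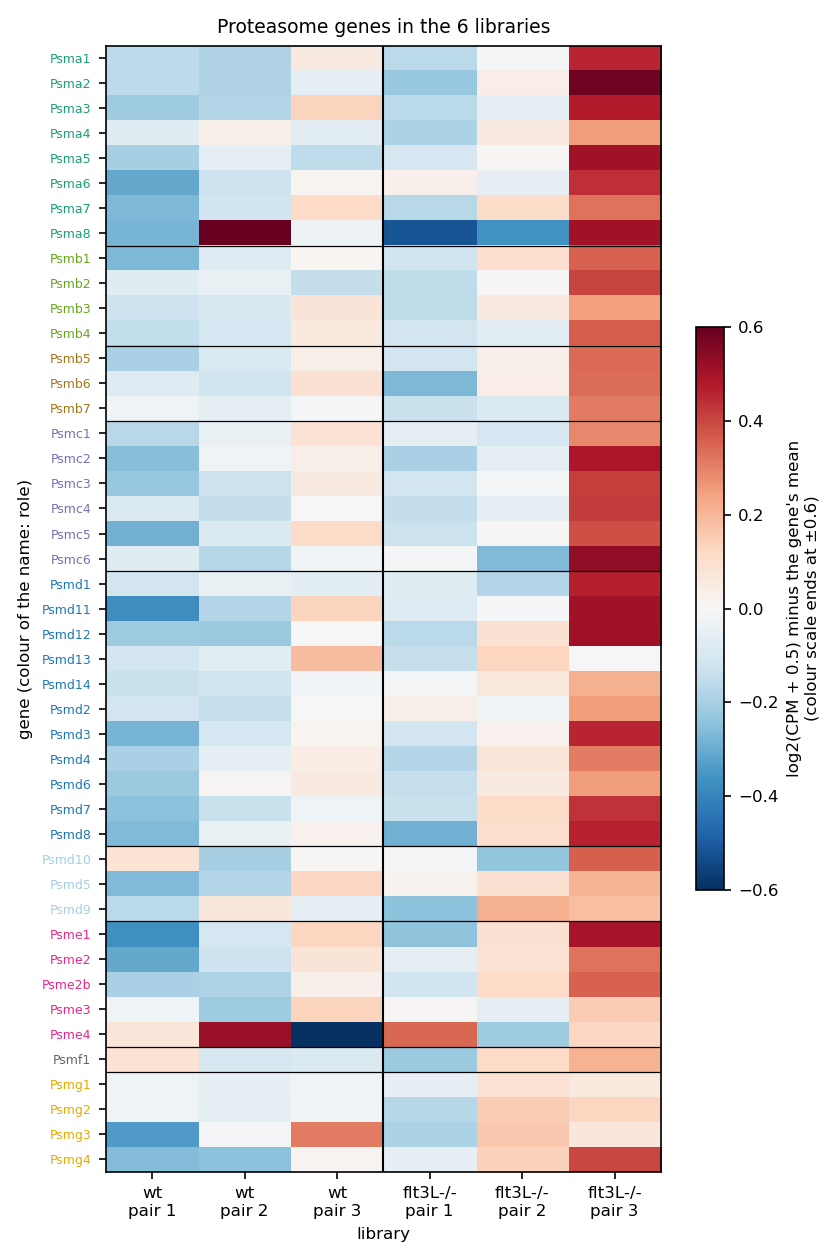
Log2(CPM + 0.5) of each tested proteasome gene in the 6 libraries relative to the gene's own mean (red above, blue below, colour scale ending at ±0.6), with gene names coloured by role and ordered as alpha ring, beta ring, ATPases, non-ATPase subunits, base chaperones, activators, Psmf1 and Psmg genes. The last column, the library labelled flt3L-/- of pair 3, is the highest for 38 of 45 genes, and the rows of Psme4 and Psma8 differ from the others.

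Pair 3 held the highest levels of most of these genes in both groups. In wt, the library of pair 3 was the highest for 36 of 45 genes against 39.9% of all genes, and in flt3L-/- it was so for 39 of 45 against 36.1%. The median of the log2 level in pair 3 less the mean of pairs 1 and 2 was 0.18 in wt and 0.42 in libraries labelled flt3L-/-, against 0.02 and −0.02 over all genes. In the test of the day, which uses both groups, 0 proteasome genes were called, as were 0 of 13475 genes (0%). At an unadjusted p under 0.05 there were 2 of 45, Psme1 (0.0302) and Psmd11 (0.0363), against 8.28% of all genes, and Psmc5 came next (0.0652). Pair 3 was sorted in 2017 and the others in 2016, and the year and the day cannot be told apart for it.

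Of other genes of the pathway, 38 were tested, of which 27 (71.1%, against 50.0% of all genes tested) had a log2 fold change above 0 and 0 were called. At an unadjusted p under 0.05 there were 2 (5.26%, against 3.59% of all genes), both immunoproteasome subunits and both higher, and 0 lower. Psmb8 had 130, 161 and 174 CPM in wt and 163, 208 and 334 CPM in libraries labelled flt3L-/-, giving a log2 fold change of 0.54 (adjusted p = 0.973, edgeR, unadjusted p-value 0.0291). For Psmb9 the values were 38.6, 54.3 and 58.2 CPM against 46.5, 67.5 and 112 CPM, a log2 fold change of 0.51 (unadjusted p-value 0.0436). Psmb10 had 69.4, 81.2 and 91.2 CPM against 77.2, 91.7 and 106 CPM, a log2 fold change of 0.18 (unadjusted p-value 0.188). All 3 were higher in 3 of 3 pairs, with overlapping groups.

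Pomp, the chaperone that completes the core, had 82.5, 77.3 and 92 CPM in wt and 85.4, 85.5 and 106 CPM in libraries labelled flt3L-/-, and was higher in each pair. Nfe2l1, which encodes NRF1, had 417, 476 and 451 CPM against 518, 401 and 494 CPM, with pair differences of 0.31, −0.25 and 0.13. In the remaining lists the smallest p among higher genes was that of Nfe2l2, the antioxidant regulator NRF2 (0.0801), with 192, 158 and 191 CPM in wt and 204, 199 and 283 CPM in libraries labelled flt3L-/-. Among lower genes it was that of the shuttle factor Ubqln2 (0.163), with 19.3, 16.5 and 10.8 CPM against 16.5, 14.5 and 8.15 CPM. By list, the number above 0 was 4 of 5 for further subunits and assembly genes, 2 of 5 for ubiquitin enzymes at the proteasome, 8 of 11 for shuttle and segregase genes, 6 of 8 for transcription factors and their processing, and 4 of 6 for ubiquitin genes and E1 enzymes.

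RNA of exchangeable catalytic subunits was compared within each library as the log2 ratio of an immunoproteasome subunit to the constitutive one, per kb. This ratio does not depend on scaling between libraries. It comes from bulk RNA, and neither protein nor assembled particles were measured. Psmb8 exceeded Psmb5 in every library, by 2.32, 2.68 and 2.64 times in wt and 2.75, 3.16 and 4.1 times in libraries labelled flt3L-/-. Psmb10 exceeded Psmb7 by 2.03, 2.43 and 2.64 times in wt and 2.44, 2.81 and 2.45 times in libraries labelled flt3L-/-. Psmb9 stayed below Psmb6, at 0.216, 0.314 and 0.29 times its level in wt and 0.3, 0.349 and 0.473 times in libraries labelled flt3L-/-. The mean log2 difference between the groups was 0.37 ± 0.23 (SD, n = 3 pairs) for Psmb8 over Psmb5 and 0.44 ± 0.28 for Psmb9 over Psmb6, each higher in 3 of 3 pairs, and 0.12 ± 0.20 for Psmb10 over Psmb7, higher in 2 of 3. With 1 pair left out, the mean differences ranged from 0.24 to 0.44, from 0.31 to 0.59 and from 0.05 to 0.23 in that order, the first 2 being lowest without pair 3, while that of Psmb10 over Psmb7 was lowest without pair 1 and highest without pair 3. The exact two-sided permutation test over the sign flips of 3 pairs gave p = 0.25 for the first 2 ratios and 0.5 for the third (0.375, 0.375 and 0.5 after adjustment over the 3 ratios). With 3 pairs the test cannot go below 0.25, so it cannot reach 0.05. The level of these ratios, unlike the differences, depends on the length used. Per kb of all annotated exons, Psmb8 was at 1.12 to 1.29 times the level of Psmb5 in wt and 1.33 to 1.97 times in libraries labelled flt3L-/-, and Psmb10 at 4.61 to 5.99 times the level of Psmb7 in wt and 5.52 to 6.36 times in libraries labelled flt3L-/-. The sequence that Psmb5 shares with pseudogenes and Psmb7 with Nek6 also limits these levels.

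**Figure D5:**
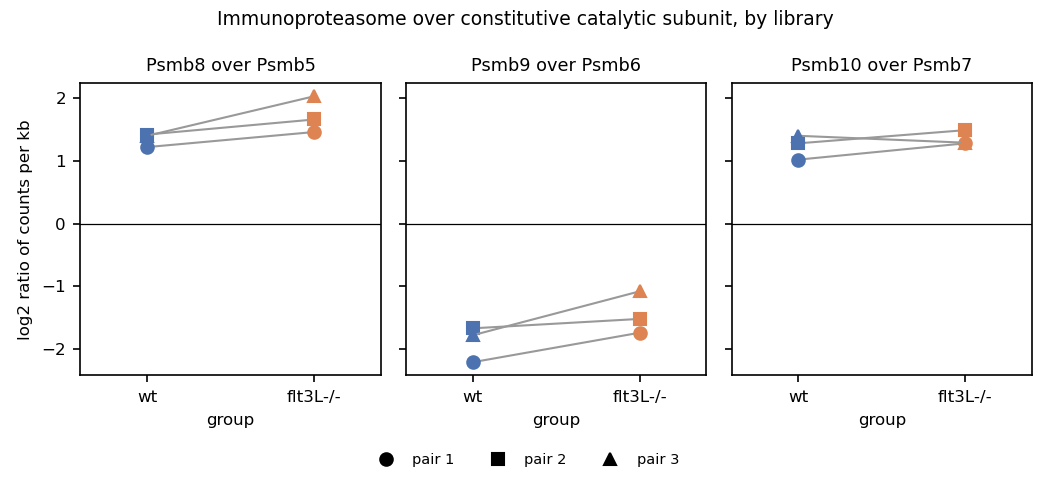
Log2 ratio of counts per kb for the 3 pairs of exchangeable catalytic subunits, with wt in blue, flt3L-/- in orange and lines joining the libraries of 1 sort day (circle, square and triangle for pairs 1, 2 and 3). The ratios of Psmb8 over Psmb5 and Psmb9 over Psmb6 are higher in flt3L-/- in 3 of 3 pairs, and that of Psmb10 over Psmb7 is lower in pair 3.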

How the data were processed

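RNA of SP-CPCs was sequenced as single 81-base reads from unstranded poly(A) libraries, 1 library per pool of 4 mice. Per the submitters' processing notes and the methods, reads were mapped with STAR 2.5.2a to mm10 with up to 10 hits, and the authors deposited raw read counts per gene, made with qCount of QuasR on an Ensembl annotation, without normalization. The FastQC 0.11.3 reports named there were not used here. A check of the table found whole numbers from 0 upwards, and 0 columns belonged to other samples. Gene types, exons and transcripts came from GENCODE M21 (GRCm38, the same assembly as mm10), where 50376 of the 50600 genes were found, while 224 had no entry and were left out of the tests. Promoters came from RefSeq.

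Genes of the protein-coding type that exceeded 1 CPM in 2 or more libraries (13475 genes) were tested in edgeR 4.0.16 on R 4.3.3, with TMM factors, glmQLFit and glmQLFTest with legacy = TRUE, the sort day as a covariate and Benjamini-Hochberg adjustment over all genes tested (threshold 0.05). The common dispersion was 0.0978. The standard error of a log2 fold change is its size over the root of F, with 95% intervals from the total degrees of freedom. Pair differences used a prior count of 2, and ratios a pseudocount of 0.5 counts. The test was tested on simulated counts. Since nothing states that reads carry molecular identifiers, limits cover counting error only, and p-values measure the spread between pools.

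A wt and a flt3L-/- sort share a day per the labels and methods, which is where the pairing comes from. After removal of group means, the correlation across genes of same-day libraries was 0.227, 0.0421 and 0.184. Correlations between any pair of libraries were 0.929 to 0.98.

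The genes described, the lists of related genes and markers and the tests were chosen with earlier results of these data known. All proteasome genes could be named. Values in every library are given for Psmd2, Psmb5, Psmb6, Psmb7, the activators, the 3 smallest p-values in each direction and for the day, and the most and least abundant gene of each role, per kb of principal transcript and of all exons. Psmd14 and the marker Klrb1c were named after their values were seen. Marker lists of 6 genes each were for endothelial cells, fibroblasts, pericytes and smooth muscle, macrophages and monocytes, dendritic cells, lymphocytes and NK cells, cardiomyocytes, erythroid and cycling cells. Alternatives were 3 other normalizations, DESeq2 1.42.0, legacy = FALSE, robust dispersions, 3 other filters, all biotypes, exon length and GC trends removed, each pair left out, no replicate block, an adjusted p under 0.1 and a pseudocount of 5 counts.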

Additional observations from a re-analysis of the deposited data

How the results depend on the processing

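No proteasome gene was called for genotype or for sort day under any of the alternatives run, and in each the median log2 fold change of the proteasome genes stayed above 0. It lay between 0.13 (library size only) and 0.18 (no replicate block) with all libraries, and between 0.08 and 0.21 with 1 pair left out, the lowest without pair 3, where 35 of 44 genes lay above 0. The median over all genes tested lay between −0.0392 (library size only) and 0.0274 (no filter). With library size only, 42 of 45 genes lay above 0, and in the fit with no replicate block it was 43 of 45, with 0 genes called. The number of genes called for genotype was 0 in the other alternatives and 21 with DESeq2, where the cause was not tested. For the sort day DESeq2 called 403 genes and edgeR without pair 2 called 112, with 0 proteasome genes in either. The direction turned for Psmg3 with library size only (−0.013) and with the exon length trend removed (−0.0042), and for Psmd13 with upper quartile factors (0.0010) and no filter (6.025e-06). With 1 pair left out, log2 fold changes ranged from −0.13 to 0.085 for Psmd13, −0.072 to 0.17 for Psmg3, −0.044 to 0.26 for Psmf1, −0.018 to 0.18 for Psmg2, −0.018 to 0.20 for Psmb6, −0.068 to 0.15 for Psmb7, −0.24 to 0.62 for Psme4, −0.016 to 0.30 for Psmb2, −0.016 to 0.29 for Psmc6 and −0.068 to 0.16 for Psmd10. For the other proteasome genes followed singly, the sign stayed in the alternatives run. Psmd14, Psmd3, Psmd5, Psma3 and Psma5 were among the genes not followed singly. Depth limits Psmb11, which lay under the floor of 3 counts, and Psma8, with 7 to 32 counts.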

Other observations

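Cycling cell markers (6 genes, 5 above the filter), a list not used above, summed to 14.7 to 21.1 CPM in wt and 15.9 to 22.7 CPM in flt3L-/- libraries. Of the 4 processed pseudogenes named after proteasome subunits, Psmb6-ps2 had the most counts, with 58, 56 and 77 counts in wt and 57, 62 and 87 counts in flt3L-/- libraries, against 0 to 10 counts for the other 3.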
